A study of Rattus norvegicus with 6 samples.

Results

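Interferon-stimulated genes were followed in rat liver as a list of 41 genes, chosen by symbol for their known induction by interferon. They were read on 6 microarrays, 1 for each of 6 rats, 3 given nitrilotriacetic acid (NTA) and 3 given vehicle. A probe was assigned to a gene when the RefSeq accession on the array paired with that gene's symbol. Of the 41 genes, 36 had a probe (59 probes in all) and 35 passed the filter on dim probes, among 30352 features tested (11251 named genes and 19101 probes without a symbol). No probe was matched to Rigi, Herc6, Xaf1, Zbp1 and Samd9l, which were not analysed here. Ifit1, an RNA-binding antiviral protein, was above background only on the array of vehicle rat 2 and was not tested.

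The rats were male Sprague-Dawley (Crl:CD(SD)) animals bought at 5 weeks of age. The NTA group received NTA trisodium monohydrate at 1000 mg/kg/day, and the labels give the vehicle as purified water in one field and as corn oil in another. The duration is given as 28 days in one place and as 9 weeks in another, and neither disagreement was settled here. The aim, from the series title, was to record gene expression changes that chemicals cause in rat liver. The labels call the arrays replicates and speak of 3 animals a group, so the p-values measure the spread between these rats.

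Interferons are secreted by cells that sense foreign nucleic acid and bind receptors coupled to JAK kinases. Type I interferon drives a complex that includes STAT2 and IRF9 to the interferon-stimulated response element, and interferon gamma acts through the gamma-activated sequence. The genes induced in this way degrade viral RNA, block translation, tag proteins with ISG15 and help present antigen, and several of them (Irf7, Stat2, Irf9, the RNA sensors) feed back into the pathway. In liver both hepatocytes and resident immune cells respond to interferon.

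The response element is shown first because it joins many of the members. Promoters were taken from RefSeq (rat assembly GRCr8), 250 bases before to 50 bases after each gene's start, and 29 of the 41 members were in the table. The core searched was GAAANNGAAA on both strands, which reads TTTCNNTTTC on the other strand. It was found in 18 of the 29 member promoters (62.1%), against 1312 of all 33469 promoters (3.92%), and 6 members had 2 or more matches. The gamma-activated sequence TTCNNNGAA, a palindrome, was found in 8 of the 29 (27.6%), against 8.87% of all promoters, and 5 member promoters held both. Other interferon-induced genes outside the list held the response element core in 25 of 47 promoters (53.2%). A match describes letters in this window and is not a measured binding site.

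The 6 stretches of 80 bases below lie upstream of the gene start and run 5′ to 3′ on the gene's own strand, with matches to the core in capitals. Oas1a and Oas1b are shown because they carry the same pair of overlapping matches and differed widely in their spread between rats. Bst2 carries a like pair, and Ifit3, Rsad2 and Irf7 are 3 members with a wide spread. The positions in GRCr8 are chr12:41330386-41330465 (+ strand) for Oas1a, chr12:41395861-41395940 (- strand) for Oas1b and chr16:18255048-18255127 (- strand) for Bst2. They are chr1:241527246-241527325 (+ strand) for Ifit3, chr6:48788223-48788302 (- strand) for Rsad2 and chr1:205800048-205800127 (- strand) for Irf7.
Oas1a: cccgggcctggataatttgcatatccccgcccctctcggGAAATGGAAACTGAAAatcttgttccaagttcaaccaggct
Oas1b: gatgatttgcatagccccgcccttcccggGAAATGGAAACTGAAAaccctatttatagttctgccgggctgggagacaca
Bst2: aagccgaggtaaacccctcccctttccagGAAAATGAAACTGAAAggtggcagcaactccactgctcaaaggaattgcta
Ifit3: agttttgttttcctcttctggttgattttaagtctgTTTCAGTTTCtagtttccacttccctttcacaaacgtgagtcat
Rsad2: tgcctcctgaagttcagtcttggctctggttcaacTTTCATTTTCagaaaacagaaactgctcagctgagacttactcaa
Irf7: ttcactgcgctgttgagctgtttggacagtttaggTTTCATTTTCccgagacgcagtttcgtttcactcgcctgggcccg
In Oas1a and Oas1b the matches GAAATGGAAA and GAAACTGAAA share their middle bases, and in Bst2 the pair is GAAAATGAAA and GAAACTGAAA. The Ifit3 match reads TTTCAGTTTC, and those of Rsad2 and Irf7 both read TTTCATTTTC.

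Values below are log2 of the array's processed spot signal minus log2 of that array's 75th percentile, so 0 is a signal at that percentile and a step of 1 is a factor of 2. Each probe was compared with itself between rats and not with other probes. The percentile ranged from 464 to 558 signal units, and 62.4 to 64.5% of probes were well above background. Vehicle 1 and 2 shared a slide, the 3 NTA arrays shared another, and vehicle 3 was on a slide and scan day of its own. Slide and treatment therefore cannot be told apart between the groups, and neither can the rat and the slide for vehicle 3. The local background of vehicle 3 was 40 against 54 to 61 on the other arrays, and 14 of its spots were flagged as outliers against 1 to 9. All 10 hepatocyte markers were above the filter. These are whole-tissue samples, in which a change in the number of cells of a type and a change in RNA per cell cannot be told apart.

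NTA was compared with vehicle to ask which genes the compound moves. None of the 35 measured members differed between the groups at an adjusted p under 0.05 (limma, two-sided, Benjamini-Hochberg over all 30352 features), against 9 features in all (0.0297%). At an unadjusted p under 0.05, 1 member passed in the limma fit, against 7.57% of all features. The groups failed to overlap for 1 member, against 13.6% of all features, and that member was the same gene, Ifi35. The adjusted p-values of the members ran from 0.63 to 0.99 (limma, Benjamini-Hochberg).

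The differences, NTA minus vehicle, ran from -0.26 for Ifi44 to 0.82 for Rsad2 with a median of 0.16, and the median of all features was -0.03. Of the members, 27 of 35 (77.1%) were above 0, against 43.9% of all features. This lean rested on vehicle 3. Without that array the median was -0.09 and 12 of 35 members were above 0, and without vehicle 2 the median was 0.36 and 34 were above 0. Without any 1 of the other 4 arrays it lay between 0.04 and 0.28. No member was called under any of the alternatives tried.

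Single differences leaned on single rats too. Without vehicle 3 the difference of Irf7 went from 0.54 to 0.07, that of Mx1 from 0.45 to 0.08, that of Ifit3 from 0.70 to 0.22 and that of Ube2l6 from 0.20 to 0.01. Those of Rsad2, Lgals3bp and Stat2 went to 0.51, 0.35 and 0.10, and those of Isg15, Oas1a, Oas1k, Oasl2 and Usp18 fell below 0. Without NTA 3 the difference of Oasl went from 0.56 to 0.05, and without vehicle 2 those of Ifit3 and Irf7 went to 1.19 and 1.03. The difference of Ifi35 stayed between 0.23 and 0.34 whichever array was left out.

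**Figure D1:**
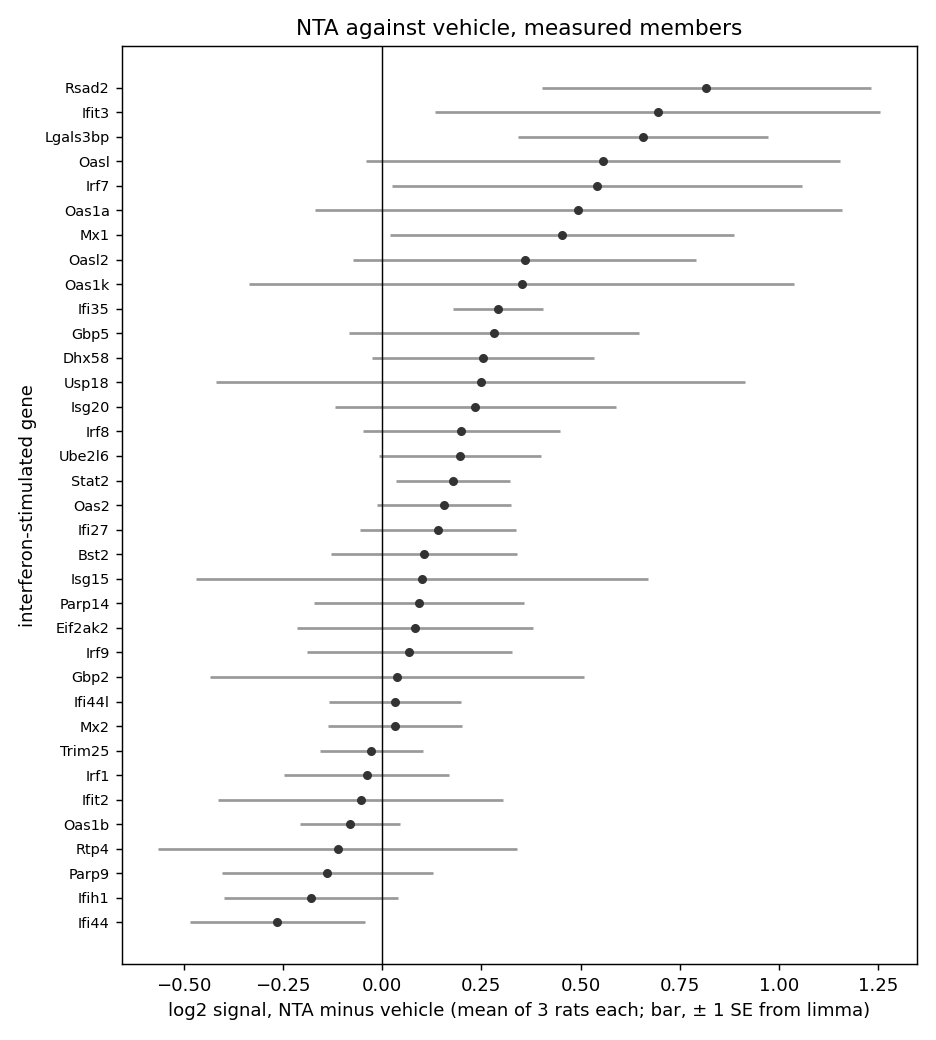
Difference in log2 signal, NTA minus vehicle (3 rats each), for the 35 measured members; points are differences of means and bars are ± 1 standard error from limma. The differences run from -0.26 for Ifi44 to 0.82 for Rsad2, and the bars of most members with large differences are long.

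Ifi35, an interferon-induced leucine zipper protein that binds Nmi, read 2.23, 2.28 and 2.06 in vehicle 1 to 3 and 2.44, 2.42 and 2.59 in NTA 1 to 3. Every NTA rat was above every vehicle rat. The group means were 2.19 ± 0.11 and 2.48 ± 0.10 (SD, n = 3 each), a difference of 0.29 (SE 0.11; limma, Benjamini-Hochberg adjusted p = 0.63).

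Lgals3bp, a secreted glycoprotein that binds galectin-3, read 2.51, 2.75 and 1.69 in the vehicle rats and 3.08, 2.56 and 3.28 in the NTA rats. Vehicle 2 was above NTA 2, so the groups overlapped, and the difference was 0.66 (SE 0.31; limma, Benjamini-Hochberg adjusted p = 0.69). Rsad2 encodes viperin, an enzyme that makes a chain-terminating nucleotide, and read 0.47, 1.31 and -0.04 in the vehicle rats and 1.33, 0.86 and 2.01 in the NTA rats. NTA 3 was highest and vehicle 3 lowest. Vehicle 2 lay above NTA 2, and the difference was 0.82 (SE 0.41; limma, Benjamini-Hochberg adjusted p = 0.70).

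The members had wide ranges between rats. The median range over the 6 rats, highest minus lowest, was 1.11 (a factor of 2.16), against 0.53 (a factor of 1.45) over all features. Wide ranges were not particular to the members. The T and NK cell markers and the macrophage markers, described below, had a wider median range, and the dendritic cell markers a narrower one. A range of at least 1 was seen for 18 members (51.4%, against 17.6% of all features) and of at least 2 for 7 members (20.0%, against 2.93%). The mean correlation between pairs of members over the 6 rats was 0.69, against 0.009 over all features, and 0.75 against 0.006 after each group's mean was taken out. These correlations describe 6 arrays whose values share one scaling per array.

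The same rats were high or low for most members. Vehicle 2 was the highest array for 17 members and NTA 3 for 16 of 35, and the other 2 peaked in vehicle 1. These 2 arrays were highest for 17.7% and 12.6% of all features. Vehicle 3 was lowest for 29 members, against 16.4% of all features. Vehicle 2 and NTA 3 were the 2 highest arrays for 23 members (65.7%, against 5.81% of all features), and for 20 of these vehicle 3 was also the lowest (57.1% of the members, against 1.91%). These 3 arrays were picked from the members' own values, so the shares over all features describe the pattern and do not test it.

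For each rat the median over members of the value minus the gene's mean over 6 rats was taken. It was -0.07, 0.47 and -0.56 in vehicle 1, 2 and 3 and 0.10, -0.17 and 0.30 in NTA 1, 2 and 3. The same median over all features stayed between -0.03 and 0.04. The vehicle group spanned the NTA group, since the vehicle rats held both the highest and the lowest value.

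Rats whose arrays shared a slide were also compared. The pairs were picked from the same member values, so these counts describe the order and do not test it. Vehicle 2 was above vehicle 1 for 33 of 35 members, by a median of 0.52 (a factor of 1.44), where 51.9% of all features were higher. On the NTA slide, NTA 3 was above NTA 2 for 33 members, by a median of 0.48 (a factor of 1.39), where 47.7% of all features were higher. NTA 1 lay between them, below NTA 3 for 30 members and above NTA 2 for 29. Between slides, vehicle 2 was above vehicle 3 for all 35 members, by a median of 0.98 (a factor of 1.97), where 45.2% of all features were higher. Vehicle 2 and NTA 3 did not separate, with vehicle 2 higher for 17 of the 35.

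Without vehicle 3, NTA 2 was the lowest of the 5 remaining arrays for 23 members, against 22.2% of all features. Vehicle 1 was then lowest for 9 and NTA 1 for 3. Vehicle 3 was the highest array for 0 members, so leaving it out could not change which array was highest. Vehicle 2 and NTA 3 were therefore highest for the same 17 and 16 members, against 24.8% and 16.2% of all features.

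**Figure D2:**
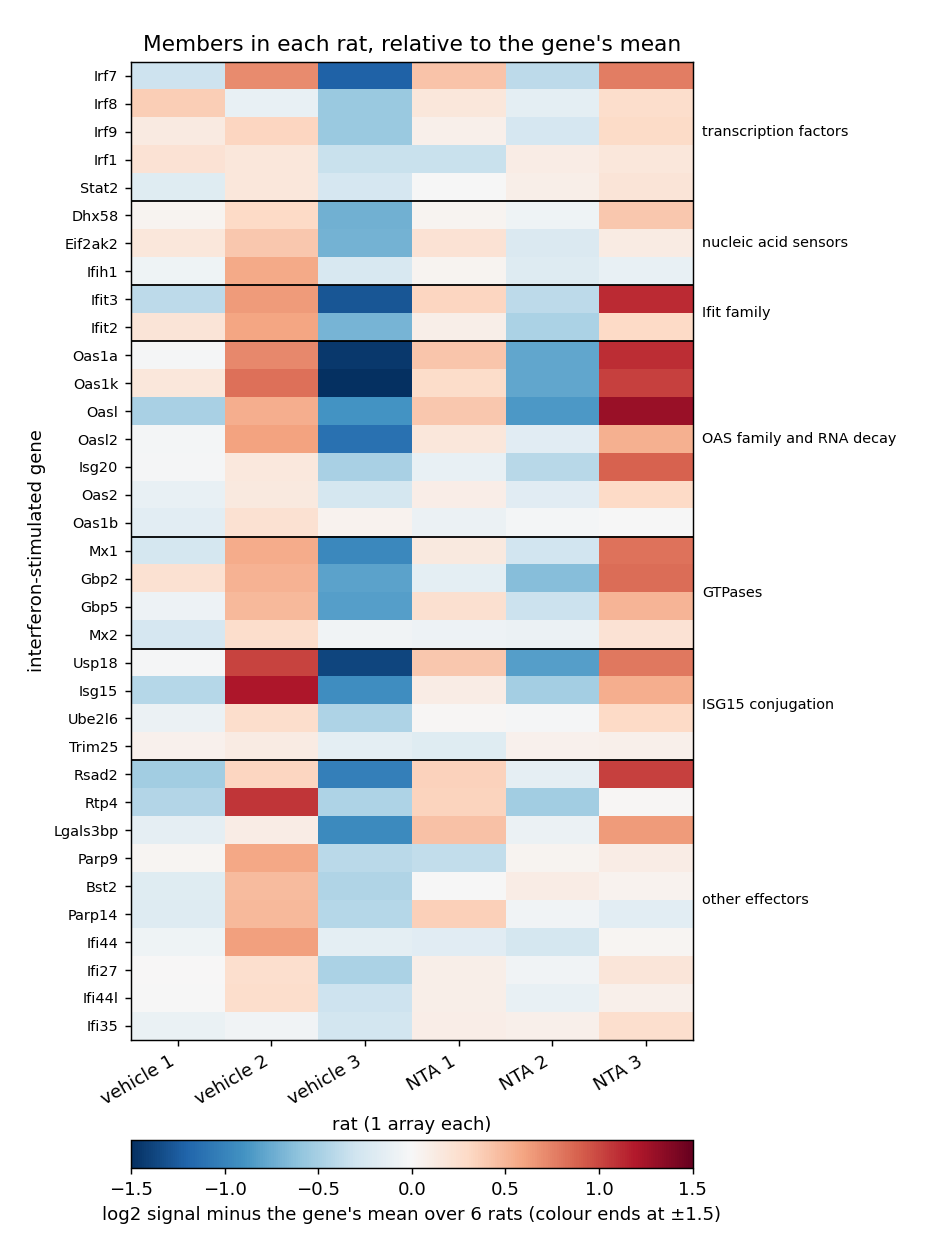
Log2 signal of the 35 measured members in each of the 6 rats, minus the gene's mean over the rats, as colour (red above, blue below; the scale ends at ±1.5), with genes grouped by role. The columns of vehicle 2 and NTA 3 are mostly red and that of vehicle 3 is blue for nearly every gene, with Oas1b an exception.

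The oligoadenylate synthetases make the messenger that activates RNase L, which cuts RNA, and the OAS-like proteins are their relatives. Of the 7 members in this group, which includes the exonuclease Isg20, vehicle 2 or NTA 3 was highest for 7 and vehicle 3 lowest for 6. Oas1a had the widest range of all measured members, 2.56 (a factor of 5.88). It read 3.22, 3.97 and 1.80 in the vehicle rats and 3.66, 2.46 and 4.35 in the NTA rats. Vehicle 3 was lowest and NTA 3 highest, and the groups overlapped throughout (vehicle 3.00 ± 1.10, NTA 3.49 ± 0.96, SD, n = 3 each; limma, Benjamini-Hochberg adjusted p = 0.89).

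Oas1k, a paralog of Oas1a, read 0.59, 1.25 and -1.09 in the vehicle rats and 0.71, -0.35 and 1.45 in the NTA rats. It had the same high and low rats as Oas1a (difference 0.35, SE 0.69; limma, Benjamini-Hochberg adjusted p = 0.93). The Oas1 genes are close copies, and whether their probes read one another was not tested. Oas1b, the product linked to flavivirus resistance in mice, read 5.86, 6.24 and 6.08 in the vehicle rats and 5.94, 5.99 and 6.01 in the NTA rats. Its range of 0.38 was the narrowest of this group, although its promoter carries the same matches to the core as that of Oas1a, and vehicle 3 was not its lowest array.

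Oasl read -3.76, -2.73 and -4.17 in the vehicle rats and -2.87, -4.13 and -1.98 in the NTA rats. NTA 3 was highest, and NTA 2 was close to vehicle 3 (difference 0.56, SE 0.60; limma, Benjamini-Hochberg adjusted p = 0.86). Oasl2 read 0.11, 0.74 and -0.98 in the vehicle rats and 0.31, -0.04 and 0.67 in the NTA rats, with vehicle 2 highest and vehicle 3 lowest (difference 0.36, SE 0.43; limma, Benjamini-Hochberg adjusted p = 0.88). Isg20 stood out for NTA 3, at 1.33 against -0.05 to 0.60 in the other 5 rats. Oas2 varied little, with a range of 0.57.

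ISG15 is a ubiquitin-like protein that interferon induces, Ube2l6 is the enzyme that carries it to its targets, Trim25 is a ligase modified by it and Usp18 removes it. Isg15 read 1.87, 3.52 and 1.37 in the vehicle rats and 2.42, 1.79 and 2.85 in the NTA rats. Vehicle 2 was highest, and both extremes were vehicle rats (vehicle 2.25 ± 1.12, NTA 2.35 ± 0.54, SD, n = 3 each; limma, Benjamini-Hochberg adjusted p = 0.98). Usp18, which also dampens signalling at the type I receptor, read 0.48, 1.51 and -0.88 in the vehicle rats and 0.89, -0.33 and 1.29 in the NTA rats. Its extremes were again vehicle 2 and vehicle 3 (difference 0.25, SE 0.67; limma, Benjamini-Hochberg adjusted p = 0.95). Ube2l6 had NTA 3 highest, vehicle 3 lowest and a smaller range of 0.76 (difference 0.20, SE 0.20; limma, Benjamini-Hochberg adjusted p = 0.85), and Trim25 had the narrowest range of all measured members, 0.31.

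The IFIT proteins bind foreign RNA and hold back its translation. Ifit3 read -1.46, -0.43 and -2.36 in the vehicle rats and -0.74, -1.46 and 0.05 in the NTA rats. NTA 3 was highest and vehicle 3 lowest, with a range of 2.41 (difference 0.70, SE 0.56; limma, Benjamini-Hochberg adjusted p = 0.81). Ifit2 read 0.14, 0.54 and -0.76 in the vehicle rats and 0.04, -0.52 and 0.24 in the NTA rats. Ifit1 read -3.83 in vehicle 2, the only array where it was well above background, and between -7.61 and -5.33 on the others. No fold is given for it, since those 5 readings are at background, and vehicle 2 was also the rat in which Ifit2 was highest.

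The GTPases among the members were Mx1 and Mx2, which block viral nucleocapsids, and Gbp2 and Gbp5, which coat pathogen compartments. Mx1 read 2.30, 3.12 and 1.60 in the vehicle rats and 2.71, 2.28 and 3.38 in the NTA rats. NTA 3 was highest and vehicle 3 lowest (vehicle 2.34 ± 0.76, NTA 2.79 ± 0.55, SD, n = 3 each; difference 0.45, SE 0.43; limma, Benjamini-Hochberg adjusted p = 0.84). Gbp5 read -0.91, -0.35 and -1.67 in the vehicle rats and -0.59, -1.16 and -0.33 in the NTA rats, and of all measured members it tracked the per-rat median most closely (r = 0.98 over 6 rats). Gbp2 ranged over 1.65, from 0.88 in vehicle 3 to 2.52 in NTA 3.

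Mx2 gave different pictures with its 2 probes. The brighter probe read 6.53, 7.06 and 6.73 in the vehicle rats and 6.72, 6.70 and 7.00 in the NTA rats, a range of 0.52. The dimmer probe read -1.12, 1.18 and -1.92 in the vehicle rats and -0.61, -1.57 and -0.12 in the NTA rats, a range of 3.10. Vehicle 2 was highest with both, and the dimmer probe had vehicle 3 lowest and a correlation of 0.94 with the per-rat median, against 0.68 for the brighter.

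Among the transcription factors, Irf7, the regulator that amplifies type I interferon production, had the widest range, 1.98. It read 2.46, 3.49 and 1.57 in the vehicle rats and 3.21, 2.39 and 3.55 in the NTA rats. NTA 3 and vehicle 2 were nearly level at the top (difference 0.54, SE 0.52; limma, Benjamini-Hochberg adjusted p = 0.84). Stat2 and Irf9, which are part of the complex that binds the response element, had narrower ranges of 0.44 and 0.88. Stat2 read 3.96, 4.31 and 3.89 in the vehicle rats and 4.14, 4.22 and 4.33 in the NTA rats (difference 0.18, SE 0.14; limma, Benjamini-Hochberg adjusted p = 0.81). The other probe of Stat2 gave a difference of -0.03 and had NTA 2 lowest. Irf1 and Irf8, factors tied to interferon gamma and to myeloid cells, differed from the rest, since vehicle 1 was highest for both, the only 2 members where that was so.

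The sensors of foreign RNA among the measured members were Ifih1, Dhx58 and the kinase Eif2ak2. With the brightest probe vehicle 3 was lowest for all 3, and ranges ran from 0.81 to 1.13. The other 2 probes of Dhx58 had NTA 2 lowest, with ranges of 0.34 and 0.95. Their differences were 0.09 and -0.37, against 0.25 with the brightest. Ifih1, which encodes MDA5, read -0.97, -0.34 and -1.14 in the vehicle rats and -0.86, -1.10 and -1.02 in the NTA rats, so vehicle 2 stood above the other 5. Among the remaining effectors, Rtp4 was high in vehicle 2 at 4.62, against 3.03 to 3.89 elsewhere. Ifi44 read 1.87, 2.55 and 1.79 in the vehicle rats and 1.77, 1.68 and 1.97 in the NTA rats. Vehicle 2 was well above the rest with this probe, and the difference was -0.26 (SE 0.22; limma, Benjamini-Hochberg adjusted p = 0.82), or -0.02 without vehicle 2. The other 2 probes of Ifi44 gave differences of -0.13 and -0.10 and wider ranges of 1.43 and 1.44, with vehicle 2 highest and vehicle 3 lowest, at 1.24 and 0.69. Bst2, or tetherin, which holds budding virus at the cell surface, ranged over 0.92, and Parp9 and Parp14, which attach ADP-ribose, over 0.98 and 0.92. Ifi27 ranged over 0.73 and Ifi44l over 0.58, both with vehicle 2 highest and vehicle 3 lowest.

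Spread and promoter letters were set side by side for the 27 measured members in the promoter table. The 17 with a match to the core had a median range of 1.34 (from 0.38 to 2.56), and the 10 without had a median range of 0.82 (from 0.31 to 2.19). The sets overlapped over most of their span, and Mx1 and Oasl had wide ranges without a match in this window. This is a description of listed genes and was not tested.

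**Figure D3:**
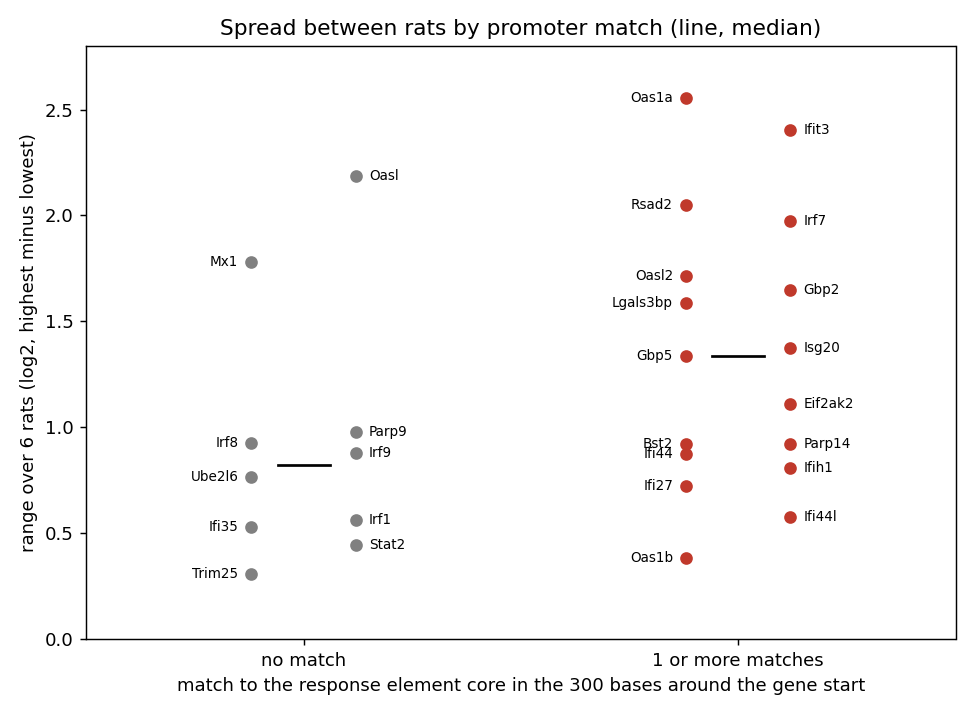
Range over 6 rats (log2, highest minus lowest) of the 27 measured members in the promoter table, by whether the 300 bases around the gene start hold a match to the response element core; the short line is the median. The medians are 1.34 with and 0.82 without a match, and Oas1a and Oas1b sit at opposite ends of the matched column.

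Several members could be read with more than 1 probe. For 15 genes there were 20 further probes above background on all 6 arrays. Vehicle 3 was lowest with 16 of these and vehicle 2 or NTA 3 highest with 18, and the range was wider than with the brightest probe for 13. The per-rat medians from these other probes were 0.03, 0.54 and -0.71 in the vehicle rats and 0.14, -0.20 and 0.22 in the NTA rats. Usp18 had 3 such probes with ranges from 1.93 to 2.38, and the second probe of Oas1a gave the same range of 2.56.

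**Figure D4:**
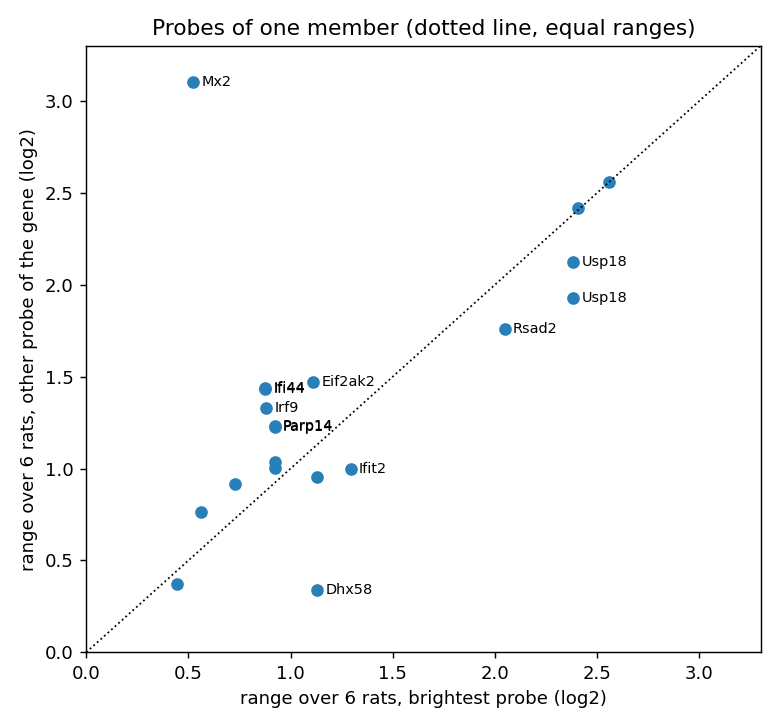
Range over 6 rats (log2) with each of 20 further probes of 15 members, against the range with the gene's brightest probe; the dotted line marks equal ranges. Mx2 lies far above the line at 3.10 against 0.52, and 13 of the 20 probes lie above it.

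Of 11 interferon ligand genes, 5 had a probe and 1 was measured. Ifna4 read -1.83, -1.72 and -1.54 in the vehicle rats and -1.80, -1.91 and -1.74 in the NTA rats, a range of 0.37, with vehicle 3 highest. Ifnb1, Ifng, Ifna5 and Ifnk were well above background on none of the 6 arrays. Vehicle 3, low for most members, was not low for this 1 ligand, whose range was below the median of 0.53 over all features. With 1 ligand measured, how interferon levels differed between the rats was not tested.

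Receptors and the first signalling steps had a spread close to that of all features. Of 16 listed genes 13 were measured, 0 passed the adjusted threshold and 0 had an unadjusted p under 0.05 in the limma fit, with a median difference of 0.01 and a median range of 0.52, where all features had 0.53. Their per-rat medians were 0.07, -0.01 and -0.17 in the vehicle rats and 0.00, 0.02 and 0.03 in the NTA rats. Ifnar1, a chain of the type I receptor, differed by 0.01 (SE 0.19) between the groups, and Ifngr1, of the interferon gamma receptor, by 0.26 (SE 0.17).

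Upstream sensing and IRF activation genes gave 13 measured of 18 listed. Vehicle 3 was lowest for 9 of the 13, against 16.4% of all features, and vehicle 2 or NTA 3 highest for 7. The per-rat medians were 0.04, 0.04 and -0.27 in the vehicle rats and 0.03, 0.03 and 0.10 in the NTA rats. None passed the adjusted threshold (limma, Benjamini-Hochberg), and at an unadjusted p under 0.05 2 of the 13 were higher and 1 lower with NTA, against 7.57% of all features in either direction. Tlr3, an endosomal receptor for double-stranded RNA, was higher by 0.41 (SE 0.13; limma, Benjamini-Hochberg adjusted p = 0.56). Sting1 was higher by 0.38 (SE 0.12; limma, Benjamini-Hochberg adjusted p = 0.56). Traf6, an adaptor ligase of Toll-like receptors, was lower, with a difference of -0.33 (SE 0.10; limma, Benjamini-Hochberg adjusted p = 0.55).

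A further list of 53 interferon-induced genes gave 39 measured genes, most of them with the same high and low rats. None was called and 1 of the 39 was higher at an unadjusted p under 0.05 in the limma fit (7.57% of all features in either direction), Tnfsf10, which encodes the death ligand TRAIL. Tnfsf10 read -3.95, -3.59 and -4.45 in the vehicle rats and -3.05, -2.97 and -3.00 in the NTA rats. Its groups did not overlap, and the difference was 0.99 (SE 0.22; limma, Benjamini-Hochberg adjusted p = 0.48). Vehicle 3 was lowest for 25 of the 39 and vehicle 2 or NTA 3 highest for 29. Within slides, vehicle 2 was above vehicle 1 for 32 and NTA 3 above NTA 2 for 29. The per-rat medians were -0.04, 0.27 and -0.36 in the vehicle rats and 0.03, -0.11 and 0.11 in the NTA rats.

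The named genes outside the list whose values were most like the members were ranked by their correlation with the per-rat member median, over 6 rats, among 1516 genes with a range of at least 1. The 8 highest were Psmb10, Psmb8, Oas1i, Lag3, Tap1, Enpp4, Psmb9 and Txk, with r from 0.96 to 0.98. Psmb8, Psmb9 and Psmb10 are subunits of the immunoproteasome and Tap1 carries peptides to MHC class I. These 4 were in the further list of interferon-induced genes. Oas1i is another oligoadenylate synthetase gene, Lag3 is an inhibitory receptor of T cells and Txk is a kinase of T cells. Psmb10 read 4.08, 4.82 and 3.62 in the vehicle rats and 4.27, 4.16 and 4.67 in the NTA rats. A correlation over 0.9 was seen for 16 of the 35 members and for 35 of the 1516 candidates (2.31%). These 2 counts cannot be set against each other, since the median is made from the members themselves. The candidates were also picked for their range and for signal above background on all 6 arrays. The members' own values ran from 0.33 for Oas1b to 0.98 for Gbp5.

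Markers of immune cells shared part of the rat pattern. Of 15 T and NK cell markers 11 were measured, and Cd3e and Cd5 were well above background on 0 arrays. NTA 3 was highest for 9 and vehicle 2 for 2 of the 11, NTA 3 was above NTA 2 for 11 and vehicle 2 above vehicle 1 for 10, and vehicle 3 was lowest for 6. A correlation over 0.9 with the per-rat member median was seen for 4 of these 11, against 0.896% of all features. It was seen for 8 of the 39 further interferon-induced genes and for 0 of the 12 measured macrophage markers. Their summed linear signal, in units of the array's 75th percentile, was 4.10 to 7.67 in the vehicle rats and 4.99 to 8.96 in the NTA rats. Nkg7, a granule protein of cytotoxic cells, read -0.10, 0.22 and -0.75 in the vehicle rats and -0.05, -0.29 and 0.58 in the NTA rats.

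Of 13 Kupffer cell and macrophage markers 12 were measured. NTA 3 was highest for 12 and vehicle 3 lowest for 11, and NTA 3 was above NTA 2 for 12. Vehicle 2, high for most members, was above vehicle 1 for only 1 of the 12 macrophage markers, against 33 of 35 members. Their summed linear signal was 126 to 279 in the vehicle rats and 187 to 369 in the NTA rats. Dendritic cell markers (7 of 12 measured) had per-rat medians from -0.13 to 0.13 and vehicle 3 lowest for 2, with Siglech, a marker of plasmacytoid cells, without a probe. Hepatocyte markers (10 of 10 measured) ran from -0.15 in NTA 3 to 0.16 in vehicle 2. The median range was 0.89 for the dendritic cell markers and 0.41 for the hepatocyte markers, both below that of the members. The part of these cells in the members' pattern was not tested.

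**Figure D5:**
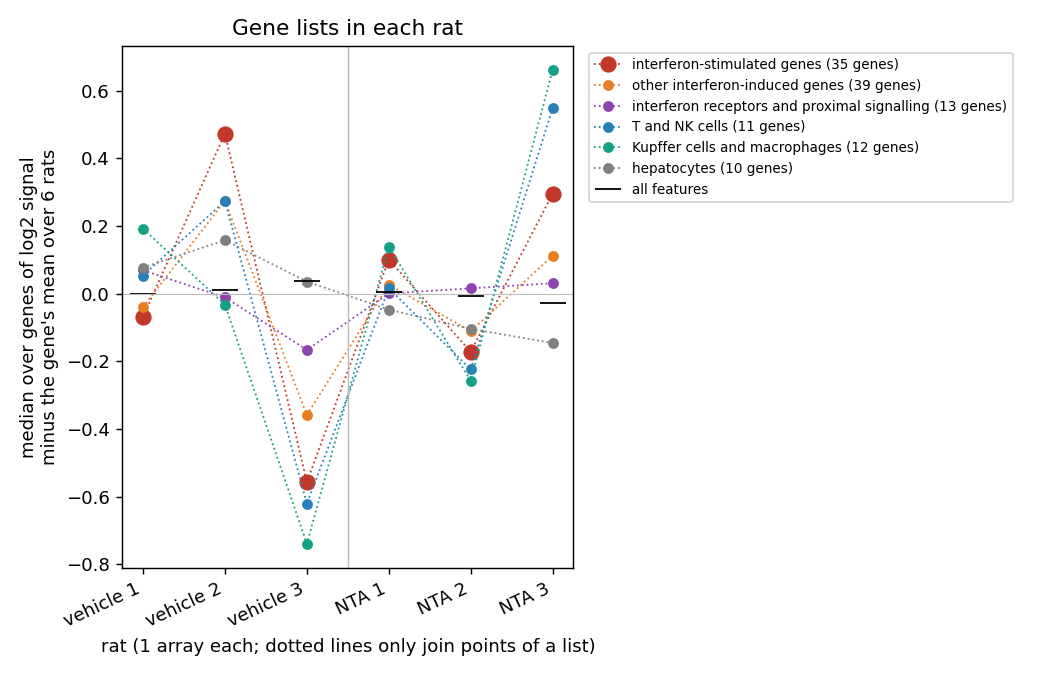
Median over the genes of a list of log2 signal minus the gene's mean over 6 rats, for each rat; coloured points are lists, black dashes are all features and dotted lines only join points of a list. The members sit at 0.47 in vehicle 2 and -0.56 in vehicle 3, the macrophage markers at -0.03 and -0.74, and the receptor list stays between -0.17 and 0.07.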

How the data were processed

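Liver RNA of 6 rats was read on 1-colour Agilent arrays, 61657 non-control probes of 62976 spots each. Per the file headers, the authors' processed signal is an intensity from Agilent Feature Extraction (10.7 in the submitters' processing notes), and the headers name the rat build rn4. The authors' deposited series table holds a ratio, the processed signal over the array's 75th percentile: 100.0% of values matched within 0.0001 plus 0.2%. Here log2 of the processed signal minus log2 of that percentile was used. A probe was kept if either group had it well above background in each of its 3 rats, with the brightest probe for each named gene. Symbols came from RefSeq accessions: 27460 probes had 1 symbol and 34197 none. NTA was compared with vehicle with limma 3.58.1 in R 4.3.3 (two-sided, Benjamini-Hochberg over all features, threshold 0.05), a step tested on simulated data.

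The members and the other gene lists were chosen with earlier results of these data known. Members named with full statistics were the 10 with the smallest p and the 10 with the widest range (15 in all), others illustrate a role. The number of arrays limits the precision. Alternatives covered background correction, normalization, filter, probe choice, the authors' table, limma settings, slide, scan day, replicate block and leaving out each array. The normexp alternative (offset 50), planned on the mean signal, which was not used here, took the median signal and the median local background instead.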

Additional observations from a re-analysis of the deposited data

How the results depend on the processing

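No member was called under any of the 16 alternatives, with the smallest adjusted p of a member between 0.43 and 0.84 (limma, Benjamini-Hochberg). Members at an unadjusted p under 0.05 numbered 1; with normexp there were 2, and 0 with scan day as a block. With scan day as a block 12 members were above 0 in place of 27, since that block sets vehicle 3 aside. The differences of Isg15 (-0.34), Oas1a (-0.10), Oas1k (-0.32), Oasl2 (-0.11) and Usp18 (-0.37) then changed sign. When each array was left out in turn, calls over all features ran from 1 to 8 (9 with all arrays), members at an unadjusted p under 0.05 from 0 to 4 and members above 0 from 12 to 34. Differences then ran from -0.34 to 0.73 for Isg15, -0.10 to 1.01 for Oas1a, -0.32 to 0.85 for Oas1k, -0.11 to 0.75 for Oasl2 and -0.37 to 0.82 for Usp18. With the replicate block, 0 features were called in all and 0 members had an unadjusted p under 0.05. Same-numbered rats had correlations of 0.17, -0.006 and -0.07 in their deviations, so the numbers were not taken as pairs. Per-rat medians were recomputed under normexp, quantile normalization, both other filters, the mean of probes, the authors' table and the other probes, and kept their sign in all of these except for vehicle 1, which ran from -0.07 to 0.03. NTA 3 was above NTA 2 for 31 to 33 members and vehicle 2 above vehicle 1 for 33 to 34. These checks, the other-probe medians and the counts without vehicle 3 were added after seeing the data. So were the counts with vehicle 2 and NTA 3 as the 2 highest arrays.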

Other observations

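For the markers of 3 other cell types every NTA per-rat median lay above every vehicle one. NTA 2 had the highest median for B and plasma cells, and NTA 3 for sinusoidal endothelium and neutrophils. The 5 measured B and plasma cell markers had a median difference of 0.74, NTA minus vehicle, with per-rat medians of -0.39, -0.40 and -0.06 in the vehicle rats and 0.19, 0.81 and 0.07 in the NTA rats, so NTA 2 and not NTA 3 was highest. At an unadjusted p under 0.05, 3 of the 5 were higher in the limma fit, against 7.57% of all features in either direction, and 0 were called after Benjamini-Hochberg adjustment, against 0.0297%. The 10 measured markers of sinusoidal endothelium had a median difference of 0.44, with 6 higher at an unadjusted p under 0.05 (7.57% of all features in either direction) and 0 called (0.0297%). NTA 3 was highest for 6 of the 10 (12.6% of all features) and vehicle 2 for 1 (17.7%), and vehicle 3 was lowest for 0 (16.4%). Their per-rat medians were -0.35, -0.20 and -0.08 in the vehicle rats and 0.10, 0.29 and 0.32 in the NTA rats. Of 9 neutrophil markers 3 were measured, at per-rat medians of 0.06, -1.29 and -0.67 in the vehicle rats and 0.55, 0.12 and 1.21 in the NTA rats. NTA 3 had the highest median and vehicle 2 the lowest, though vehicle 2 was the highest rat for 1 of the 3, Camp.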
